A study of Mus musculus with 2 samples.

Results

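The tyrosine kinase receptor gene Kit and the gene of its ligand, Kitl, were followed through single cells of mice with 4T1 liver metastases. They are 2 of the 32285 genes in the deposited matrices and were taken by symbol. Kit was selected on its lower CPM in the neutrophils of the high-dose group, so the dose ratios of Kit in neutrophils are given as a description and support nothing. That choice also needs Kit to be present in vehicle neutrophils, so their share of the Kit UMIs is a description too. The levels in other cell types, the spread over single cells and Kitl were not used.

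Kit is the receptor for stem cell factor, the product of Kitl. It is known from hematopoietic stem and progenitor cells, mast cells and some endothelium, and granulocytes usually lose it as they mature. Stem cell factor is made by endothelial and stromal cells, and binding it makes Kit molecules pair and signal through adaptor proteins and the kinases of the Ras and phosphoinositide pathways. In mice with 4T1, a mammary carcinoma line of the BALB/c strain, granulocytes accumulate in the blood, spleen and liver.

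The animals were female BALB/cAnNCrl mice aged 7 to 8 weeks, in which 4T1 cells were placed in the divided spleen to seed the liver. All pools therefore carried tumors and came from operated animals. The treatment, vehicle or a low or high dose of the curaxin CBL0137, which binds DNA and loosens chromatin, was infused through the hepatic artery, and cells of 2 mice were pooled per group 5 days later. The labels and methods used here do not give the amounts of the low and the high dose. The 3 pools carried hashtag antibodies, A0301 for vehicle, A0305 for the low dose and A0310 for the high dose, and were loaded together, giving 1 droplet library labelled liver and 1 labelled spleen. Each group is therefore a single pool per library, no test between groups is possible, and every interval below is a 95% interval that covers counting error only. Intervals of levels and ratios also treat UMIs as independent, and are too narrow for a gene whose UMIs gather in few cells.

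The dose groups rest on the barcodes of the hashtags, which are shown because each cell's group was read from them alone.
A0301: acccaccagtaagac
A0305: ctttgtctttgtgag
A0310: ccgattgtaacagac
They are 15 bases long, and each pair differed at 10 or 11 positions.

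The tissue labels went against the transcripts. The liver-labelled library held 0 UMIs of Clec4f, the marker of Kupffer cells, and no albumin, while the spleen-labelled library had 124.5 and 19.4 CPM, UMIs per 1000000 gene UMIs, and contained clusters of hepatocyte-like, sinusoidal endothelial-like and 4T1 tumor-like cells. Of the 10 hepatocyte genes listed, 9 were higher in the spleen-labelled library, the exception being Hp, a gene that neutrophils also carry, at 1713 CPM in the liver-labelled and 1172 CPM in the spleen-labelled library. The list summed to 1760 and 1355 CPM with Hp and to 46.9 and 183 CPM without it. Cr2, a gene of follicular B cells, stood at 35.5 CPM in the liver-labelled library and 5.41 CPM in the spleen-labelled library. Both are therefore named by their labels below, and no statement about an organ is drawn from them. The study's methods describe cells isolated on CD11b beads, while its figure legends describe leukocytes of the liver. In the liver-labelled library 2471 T cell-like and 1475 B cell-like cells were present. The libraries held 9591 and 4830 barcodes with 79585807 and 35672251 gene UMIs, 15 barcode sequences were listed in both, and 8435 and 2988 barcodes had a single hashtag.

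Kit lies on chromosome 5 at 75574916 to 75656722 on the plus strand of mm10, with 21 exons in its longest coding transcript. Kitl lies on chromosome 10 at 100015630 to 100100416, also on the plus strand, with 10 exons. Over all barcodes, Kit had 1561 UMIs in 584 barcodes of the liver-labelled library and 728 UMIs in 372 barcodes of the spleen-labelled library. Kitl had 30 UMIs in 23 barcodes and 370 UMIs in 230 barcodes.

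Mature neutrophils carried most of the Kit transcripts of the liver-labelled library. Neutrophil-like cells were named from a fixed list of marker genes. In clusters 2 and 3, which held most of their Kit, Csf3r, Cxcr2, Retnlg and Mmp8 were among the raised markers, and S100a8 and S100a9 were not. Neutrophil-like cells held 553 of the 664 Kit UMIs of the vehicle pool, or 83.3%. In the low-dose pool they held 416 of 531, or 78.3%, and in the high-dose pool 10 of 146, or 6.85%. They made up 45.9%, 40.4% and 9.31% of the cells of these pools. The share of Kit UMIs depends on the number of neutrophils as well as on their Kit level, and the part of each was not tested. Of the Kit UMIs of the spleen-labelled library, neutrophil-like cells held 32.0% with vehicle, 30.4% at the low dose and 0 of 140 UMIs at the high dose, and they were 36.5%, 44.0% and 13.1% of the cells of the 3 pools.

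**Figure D1:**
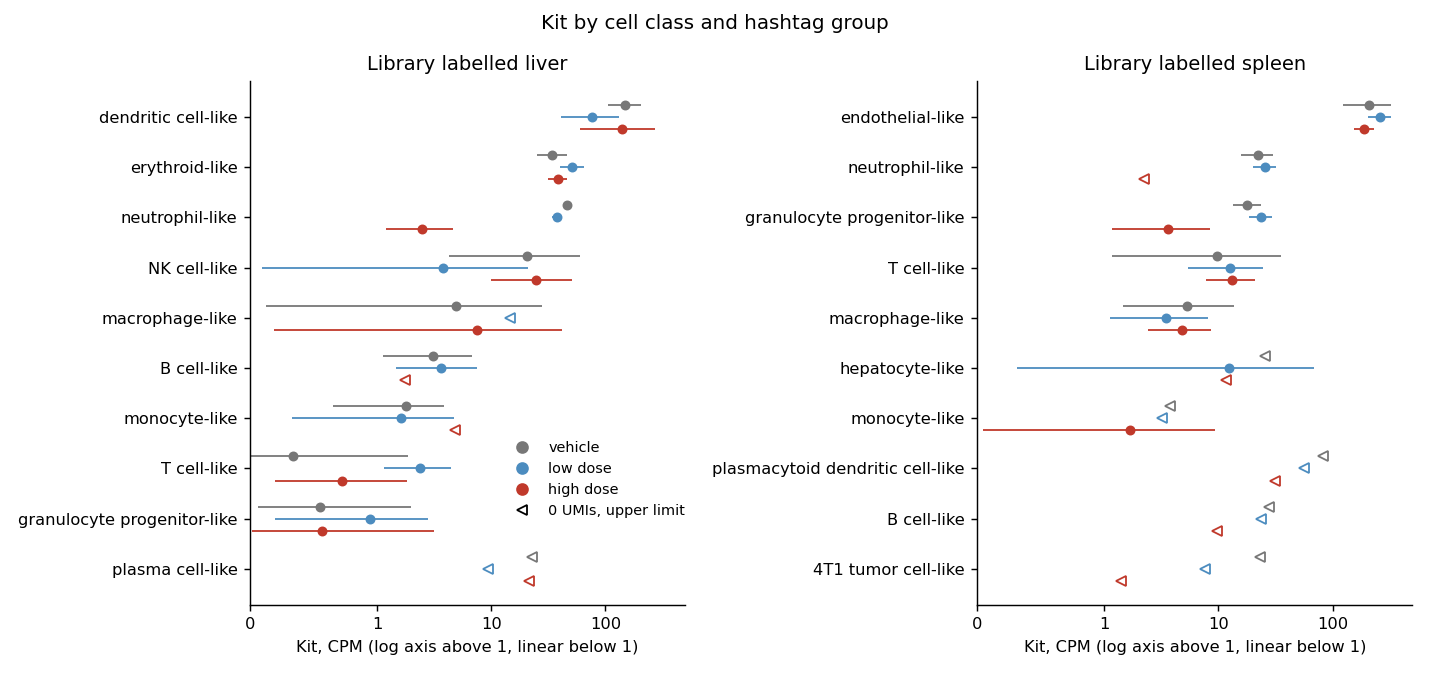
Kit in CPM (x axis, logarithmic above 1 and linear below) by marker-named cell class in each library. Points are 1 pool each with 95% Poisson intervals, open triangles mark the upper limit where no UMI was counted, and the high-dose neutrophil-like cells lie at 2.49 CPM or under the limit of 2.24 CPM, far below the 2 other groups.

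By class, over the 3 pools of the liver-labelled library, Kit was highest in a small cluster of dendritic cell-like cells. Its 43 cells had 59 Kit UMIs, or 122 CPM (93.2 to 158), and raised Batf3 and Flt3, genes of dendritic cell development. The next were a cluster named erythroid-like and the neutrophil-like cells, whose order depended on the pool. With vehicle they had 34.3 CPM (25.0 to 45.9) and 46.3 CPM (42.5 to 50.3), and at the high dose 38.2 CPM (31.3 to 46.3) and 2.49 CPM (1.20 to 4.58). NK cell-like cells stood at 15.8 CPM (7.91 to 28.3). T cell-like cells, which should lack Kit and mark the level that free RNA can give, stood at 1.18 CPM (0.661 to 1.95), monocyte-like cells at 1.54 CPM and B cell-like cells at 2.34 CPM, with intervals that overlap that of the T cell-like cells. In the vehicle pool of the spleen-labelled library, neutrophil-like cells had 22.2 CPM (15.8 to 30.3), granulocyte progenitor-like cells 17.9 CPM (13.3 to 23.6) and T cell-like cells 9.70 CPM (1.18 to 35.0), and these intervals overlap. At the high dose the T cell-like cells had 13.1 CPM (7.79 to 20.8), above the limit of 2.24 CPM of the neutrophil-like cells. Of the 28 Kit UMIs of its T cell-like cells, 26 lay in a cluster that also raised Gzma and Klrd1.

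The Kit of the cluster named erythroid-like sat in progenitor-like cells. The cluster passed 4 erythroid markers, Hba-a2, Hbb-bs, Gata1 and Car2, but also held Mpo at 1009 CPM, Elane at 504 CPM and Cd34 at 86.0 CPM, which go against that name. It was led by Car1, Car2, Myb and Cdk6, and clustering at a finer resolution of 1.6 named 117 of its 174 cells stem and progenitor-like. Those 117 cells held 215 of the cluster's 219 Kit UMIs, at 49.5 CPM (43.1 to 56.6), and 33 of its cells were T cell-like and 23 unnamed. By pool their level was 38.2 CPM (27.9 to 51.1) with vehicle, 60.8 CPM (46.9 to 77.5) at the low dose and 50.2 CPM (41.0 to 60.7) at the high dose, and the high-dose interval overlapped both others.

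Cells named granulocyte progenitor-like did not show a uniform level. The 248 granulocyte progenitor-like cells of the liver-labelled library were led by Elane and Prtn3, the proteases of primary granules. They had 6 Kit UMIs, or 0.700 CPM (0.257 to 1.52). The neutrophil-like cluster led by Ltf, Camp and Ngp stood at a like level, 0.802 CPM (0.346 to 1.58). The other neutrophil-like clusters of that library stood higher, between 8.33 and 129 CPM. Of the progenitor-like clusters of the spleen-labelled library, the one led by Ctsg, Mpo, Myb and Cd34 stood at 30.8 CPM, and the one led by Cebpe and Fcnb had 1 UMI, at 0.314 CPM. The finer resolution placed 52 of the 160 cells of the first of these in a basophil or mast-like cluster, and they held 89 of its 130 Kit UMIs, at 79.5 CPM. That name is uncertain. All 160 cells together had Mpo at 2216 CPM, Cd34 at 104 CPM, Mcpt8 at 74.0 CPM and Cpa3 at 20.9 CPM. In the liver-labelled cluster led by Prss34 and Mcpt8, Mcpt8 and Cpa3 stood at 4302 and 1180 CPM. The 108 cells that stayed granulocyte progenitor-like had 41 UMIs, at 13.2 CPM. Of the 155 cells of the cluster led by Cebpe, the finer resolution named 153 neutrophil-like, while the 248 liver-labelled cells kept their name. Those 2 clusters had the secondary granule genes Camp at 14010 and 16380 CPM and Ltf at 3448 and 3896 CPM. Their progenitor names are therefore uncertain too. As a whole, the progenitor-like class of this library went from 51 UMIs and 17.9 CPM (13.3 to 23.6) with vehicle to 75 UMIs and 23.6 CPM (18.5 to 29.6) at the low dose and 5 UMIs and 3.63 CPM (1.18 to 8.48) at the high dose. The log2 ratio of the high dose to vehicle was -2.30 (-3.985 to -0.987). The class joins both progenitor-like clusters, and their mix differed between the pools. The cluster led by Ctsg had 66, 80 and 14 cells, and the one led by Cebpe 61, 51 and 43. Kit in the first stood at 31.25, 33.45 and 13.3 CPM, the last from 5 UMIs in 14 cells. All cells of this library with the basophil or mast-like name, 15 of them from cluster 6, numbered 24, 41 and 2 in the 3 pools. They had 46, 45 and 4 Kit UMIs.

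Endothelial cells had the highest Kit level of any class in the spleen-labelled library. The 249 endothelial-like cells, led by Clec4g and Kdr, genes of liver sinusoids, had 190 Kit UMIs, or 214 CPM (185 to 247). The level was 207 CPM (123 to 327) in 35 vehicle cells, 258 CPM (204 to 322) in 104 low-dose cells and 189 CPM (153 to 231) in 110 high-dose cells. The log2 ratio of the high dose to vehicle was -0.13 (-0.87 to 0.68), an interval that allows a change of either sign.

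Neutrophils held almost no Kit transcripts at the high dose in either library. In the liver-labelled library, 1425 vehicle cells had 553 UMIs, 1289 low-dose cells had 416 and 199 high-dose cells had 10. The levels were 46.3 CPM (42.5 to 50.3), 37.6 CPM (34.1 to 41.4) and 2.49 CPM (1.20 to 4.58). These intervals did not overlap, but they treat UMIs as independent, and 5% of the vehicle cells held 67.8% of the Kit UMIs. They are therefore too narrow, and the low dose is not shown to differ from vehicle. The high dose was 18.6-fold lower than vehicle, a log2 ratio of -4.22 (-5.28 to -3.33), and the low dose had a log2 ratio of -0.30 (-0.49 to -0.11).

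Among neutrophil-like cells of the spleen-labelled library, 300 vehicle cells had 39 Kit UMIs, 572 low-dose cells had 76 and 113 high-dose cells had 0. The vehicle level was 22.2 CPM (15.8 to 30.3) and the low-dose level 25.6 CPM (20.2 to 32.0), with overlapping intervals and a log2 ratio of 0.21 (-0.37 to 0.80). The 0 UMIs of 1336505 in the high-dose cells allow up to 2.24 CPM, and the ratio at that limit of 3 counts over the group is at least 9.88-fold lower, with the 39 vehicle UMIs taken as exact. With counting error in both pools, the upper end of the interval of the log2 ratio was -2.94.

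Among all genes with 50 UMIs or more over both groups, a log2 ratio of -1 or lower was found for 13.1% at the high dose in the liver-labelled library, and 22 of 7440 genes had a lower ratio than Kit. For the spleen-labelled library 4.45% of 3821 genes were that low, a count that does not include Kit, which had 39 UMIs. At the low dose the shares were 1.24% and 0.951%, and Kit was not among those genes. Since the ratio of Kit chose the gene, its place in these distributions is a description.

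The lower Kit came with a change in which neutrophils were present. A pair of clusters of the liver-labelled library, both with raised Il1b, Csf1 and Csf3r, carried 498 and 362 of the 979 Kit UMIs of its neutrophil-like cells. The first, led by Saa3 and Il1b, made up 45.3% of the neutrophil-like cells with vehicle, 23.4% at the low dose and 4.52% at the high dose, and the second 24.6%, 35.1% and 1.51%. Kit stood at 129 CPM and 113 CPM in them. The stefin cluster, led by Stfa3 and Stfa2, was 11.2% of the neutrophil-like cells with vehicle and 56.3% at the high dose. It had 160 and 112 cells there, or 5.16% and 5.24% of all cells of these pools, and Kit at 12.8 CPM. A cluster led by Ltf, Camp and Ngp, genes of secondary granules made by immature neutrophils, had 8 Kit UMIs and 0.802 CPM, and one led by Prok2 and Retnlg had 31 UMIs and 8.33 CPM. Kit was highest in the clusters with the least Ltf, which stood at 42.5 and 17.1 CPM there against 6841 CPM in the secondary granule cluster.

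The spleen-labelled library had a like order. Its cluster 0, with Il1b, Cxcr2 and Csf3r among the leading genes, had 77 UMIs and 53.7 CPM, and its cluster 2, led by Ccrl2 and Il1b and with Hilpda and Csf1, had 21 UMIs and 41.8 CPM. The stefin cluster stood at 2.79 CPM and the Ltf cluster at 2.28 CPM. Cluster 0 held 36.7%, 33.9% and 20.4% of the neutrophil-like cells of the 3 pools, and cluster 2 held 33.3%, 21.7% and 2.65%.

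**Figure D2:**
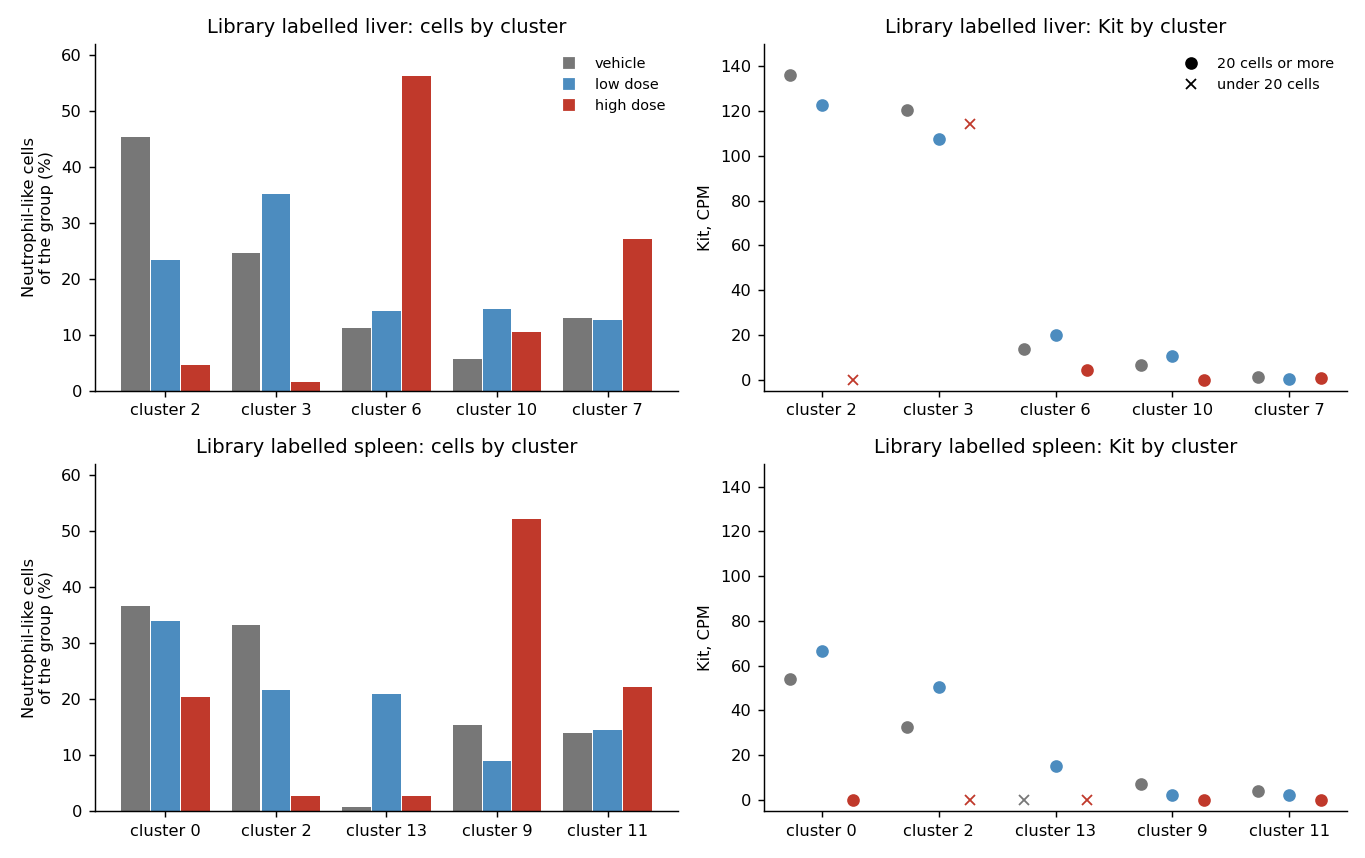
Left, share of each group's neutrophil-like cells (%, y axis) in each cluster; right, Kit in CPM in the same clusters, with crosses where fewer than 20 cells stood behind a value. Clusters are ordered by Kit level. The 2 clusters with the highest Kit in the liver-labelled library held 4.52% and 1.51% of the high-dose neutrophil-like cells. The stefin clusters 6 (liver-labelled) and 9 (spleen-labelled) held 56.3% and 52.2%, with 112 and 59 high-dose cells against 160 and 46 vehicle cells.

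Within a cluster, Kit at the low dose could not be told from vehicle. In cluster 2 of the liver-labelled library the levels were 136 CPM with vehicle and 123 CPM at the low dose, a log2 ratio of -0.15 (-0.43 to 0.13), and in cluster 3 they were 120 and 107 CPM, a log2 ratio of -0.17 (-0.47 to 0.14). Both intervals include 0. Cluster 0 of the spleen-labelled library had 54.0 CPM with vehicle and 66.6 CPM at the low dose, a log2 ratio of 0.30 (-0.41 to 1.04).

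At the high dose few cells were left in the clusters with Kit. The stefin cluster of the liver-labelled library, with 160 vehicle and 112 high-dose cells, had 29 and 8 UMIs, or 13.5 and 4.07 CPM, a log2 ratio of -1.73 (-3.07 to -0.56). One high-dose cell held 5 of those 8 UMIs. Its secondary granule cluster had 6 and 1 UMIs, too few to tell a difference (log2 ratio -1.03, -6.55 to 2.01). The 23 high-dose cells in cluster 0 of the spleen-labelled library had 0 Kit UMIs of 186988, which allows up to 16.0 CPM against 54.0 CPM with vehicle. The 9 high-dose cells in cluster 2 of the liver-labelled library also had 0, which allows up to 37.5 CPM against 136 CPM. In cluster 3 of the liver-labelled library, the other one rich in Kit, 3 high-dose cells had 1 UMI, or 114 CPM against 120 CPM with vehicle. All 3 clusters hold fewer high-dose cells than the 50 asked for in a ratio. The stefin cluster of the spleen-labelled library had 4 UMIs in 46 vehicle cells, or 7.13 CPM, and 0 in 59 high-dose cells, which allows up to 4.16 CPM.

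The mix of clusters was described by giving each cluster its vehicle Kit level and weighting it by the UMIs of the dose group. For the high-dose cells this gave 10.7 CPM in the liver-labelled library, or 42.9 UMIs, where 10 were counted and 2.49 CPM (1.20 to 4.58) was measured. The spleen-labelled library gave 12.8 CPM, or 17.1 UMIs, where 0 were counted. Both values lie below the vehicle levels of 46.3 and 22.2 CPM and above the measured ones. They carry no interval, use the Kit values that chose the gene, and a cause was not tested. In the spleen-labelled library they rest on 26, 7, 4 and 2 vehicle UMIs in clusters 0, 2, 9 and 11. For the low dose it gave 39.5 CPM in the liver-labelled library against 37.6 CPM (34.1 to 41.4) measured, and 19.4 CPM in the spleen-labelled library against 25.6 CPM (20.2 to 32.0). The last expected value takes 0 for cluster 13, which held 120 low-dose cells with 8 Kit UMIs but only 2 vehicle cells, so those cells have no usable vehicle level.

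**Figure D3:**
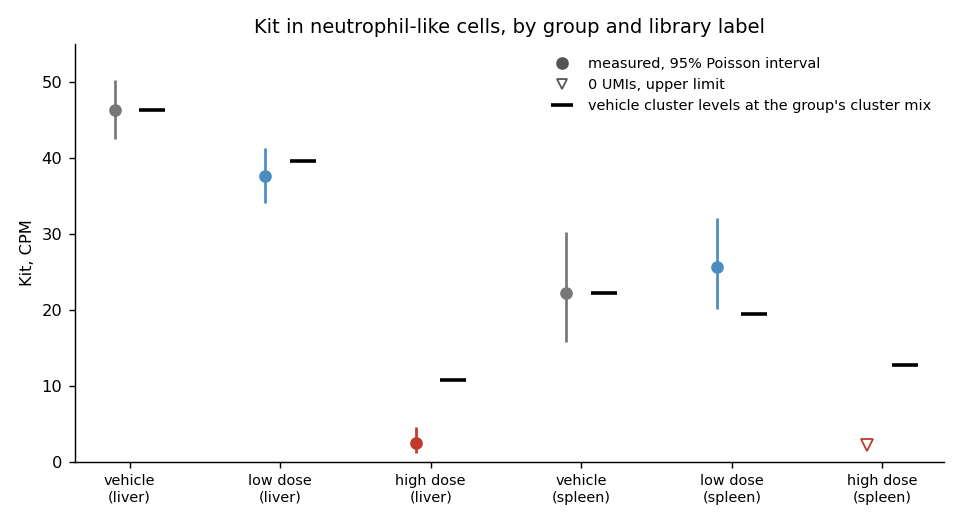
Kit in CPM (y axis) in the neutrophil-like cells of each pool, with 95% Poisson intervals, beside the value that vehicle cluster levels give at the pool's own mix of clusters (black bars). At the high dose the measured 2.49 CPM and the upper limit of 2.24 CPM lie under bars at 10.7 and 12.8 CPM.

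The high-dose neutrophil-like cells also held more RNA counts per cell. Their median was 18610 UMIs against 4366 with vehicle in the liver-labelled library and 11390 against 3477 in the spleen-labelled library, so that their lower Kit was measured at greater depth. With every cell thinned to 500 UMIs, 3.44% (2.56 to 4.52) of the vehicle, 2.79% (1.96 to 3.85) of the low-dose and 0.503% (0.0127 to 2.77) of the high-dose neutrophil-like cells of the liver-labelled library had a Kit UMI. Unthinned, the shares were 13.2%, 11.02% and 2.51%. T cell-like cells, at a median of 4820 UMIs against 5510 over all neutrophil-like cells, had 0.0809% (0.00980 to 0.292) thinned and 0.445% unthinned, so the vehicle and low-dose shares lie above that level and the interval of the high-dose share reaches it.

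Thinned cells of the spleen-labelled library with a Kit UMI made up 2.0% (0.737 to 4.30) with vehicle and 1.75% (0.842 to 3.19) at the low dose, and unthinned 7.67% and 7.17%. At the high dose it was 0 of 113 cells, thinned or not, which allows a share of up to 2.65%. At 500 UMIs per cell a difference between the groups was therefore not detectable there, and the difference rests on the full counts. T cell-like cells of this library had 0.633% (0.0767 to 2.27) thinned and 6.33% unthinned, close to the neutrophil-like cells. The share of cells with a UMI therefore does not set the 2 classes as named apart in this library. Unthinned, the T cell-like cluster that also raised Gzma and Klrd1 had Kit in 18 of 199 cells, or 9.05%. The other T cell-like cluster had it in 2 of 117 cells, or 1.71%.

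Kit transcripts were concentrated in a minority of neutrophils. In vehicle cells of the liver-labelled library, 188 of 1425 cells had a Kit UMI and those averaged 2.94 UMIs each, with up to 11 in 1 cell. In 67 cells there was 1 UMI, in 39 there were 2 and in 82 there were 3 or more, and 5% of the cells held 67.8% of the Kit UMIs. Of 1319 genes with a UMI total within 1.5-fold of that of Kit in the same cells, the median gene had 1.36 UMIs per cell with a UMI and was found in 380 cells, and 0.682% reached the value of Kit. The low-dose pool gave 2.93 UMIs in 142 of 1289 cells, which 0.696% of 1436 such genes reached.

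The value was lower in the spleen-labelled library, at 1.70 UMIs in 23 of 300 vehicle cells and 1.85 UMIs in 41 of 572 low-dose cells, reached by 3.08% and 0.549% of genes at that level. Vehicle cells with Kit had a median depth of 4040 UMIs against 4441 in those without in the liver-labelled library, and 4764 against 3403 in the other. The concentration was weaker in the endothelial-like cells, where 87 of 249 cells had Kit at 2.18 UMIs each and 16.6% of genes at that level reached the value.

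**Figure D4:**
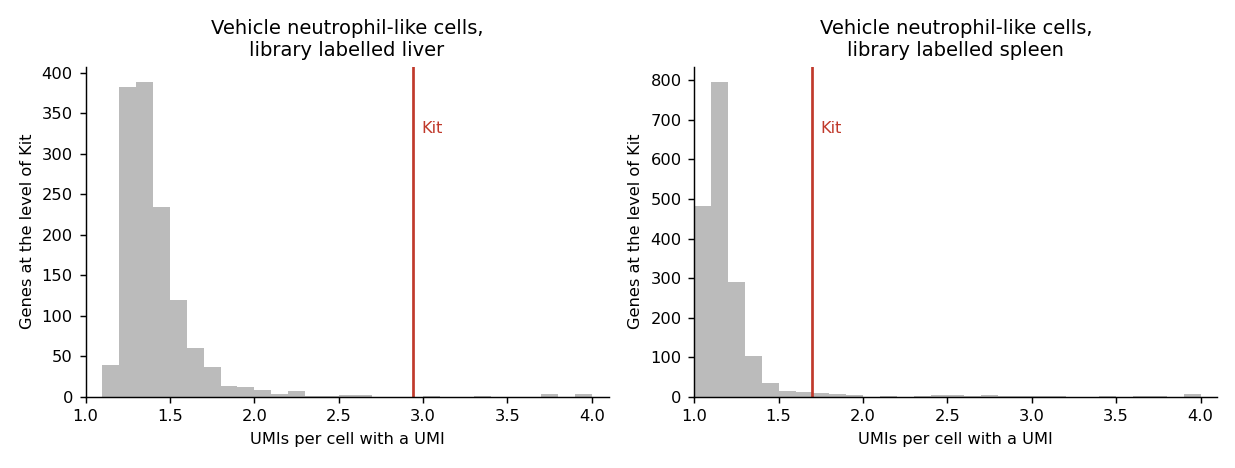
Number of genes (y axis) by UMIs per cell with a UMI (x axis), in vehicle neutrophil-like cells, for genes with a UMI total within 1.5-fold of that of Kit (values of 4 and above are drawn in the last bar). The red line marks Kit, at 2.94 and 1.70, to the right of most genes.

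Neutrophils with Kit had few transcripts of progenitors or mast cells. Among vehicle and low-dose neutrophil-like cells thinned to 2000 UMIs, 234 cells with a Kit UMI in the liver-labelled library had 0 UMIs of Mpo, Elane, Gata2, a transcription factor of stem and mast cells, and Cpa3, a mast cell protease, and 1 UMI of Cd34. The 2311 cells without Kit had 10, 13, 2, 0 and 0. The 37 cells with Kit of the spleen-labelled library had 1 UMI of Elane and 0 of the other 4. All these counts are too few to tell cells with Kit from those without. In the liver-labelled library, Mcpt8, a basophil gene, had 1 UMI with Kit and 2 without, and Prtn3 had 17.1 and 61.9 CPM. Mcpt8 and Prtn3 were named after their values were seen. Some transcripts of other cells moved with Kit in the liver-labelled library. Cd3e, of T cells, stood at 12.8 CPM with Kit against 2.38 CPM without (6 and 11 UMIs), and Cd74, of antigen-presenting cells, at 120 against 47.4 CPM. For Cd74 this turned with the setting, to 59.2 against 59.6 CPM with thinning to 1000 UMIs and to 31.7 against 60.5 CPM within the clusters rich in Kit. Cd3e stayed higher with Kit in these 2 settings, at 13.2 against 2.75 CPM and at 9.76 against 1.45 CPM. Those values came from 2 and 7 UMIs and from 4 and 4 UMIs. In the spleen-labelled library Cd3e had 0 and 2 UMIs and Cd74 stood at 27.0 and 23.0 CPM. Their part in the result was not tested, and both genes were named after their values were seen.

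Cells with Kit held fewer transcripts of immature neutrophils than cells without. Ltf in the liver-labelled library stood at 53.4 CPM in cells with Kit and 1342 CPM in cells without, a log2 ratio of -4.65 (-5.28 to -4.09), and Camp at 135 and 3269 CPM. The cells with Kit of the spleen-labelled library had 0 UMIs of Ltf and Camp against 1951 and 4077 in the cells without. Ngp had log2 ratios of -3.79 and -4.34. Over all neutrophil-like cells, some genes of activated or late neutrophils were higher in cells with Kit, and others were not. Il1b, the gene of interleukin 1 beta, had log2 ratios of 0.63 (0.55 to 0.71) and 0.67 (0.53 to 0.80) in the 2 libraries, Csf3r, the receptor of the granulocyte growth factor, 0.47 and 0.94, and Cxcr2, the chemokine receptor of release from marrow, 0.50 and 0.50. Within the clusters rich in Kit these ratios were smaller, at -0.08 and 0.14 for Il1b, -0.04 and 0.26 for Csf3r and 0.10 and 0.19 for Cxcr2. Over all neutrophil-like cells, Retnlg, raised in most neutrophils, differed by -0.11 and 0.04, and Mmp8 by -0.09 and -0.14. S100a8 was lower in cells with Kit, at -0.71 and -0.39. Csf1 had 0.51 (0.18 to 0.81) in the liver-labelled and 0.07 (-0.96 to 0.94) in the spleen-labelled library. Ltf, Camp, Csf3r and the fixed Mpo, Elane, Gata2, Cpa3 and Cd34 were set in the rule on named genes. Il1b, Ngp, Cxcr2, Retnlg, Mmp8 and S100a8 were named after their values were seen.

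By that rule the 10 genes most raised in cells with Kit, by the smaller log2 ratio of the 2 libraries on a scale with 10 CPM added, were Bend4, Cd244a, Dda1, Ulk1, Fam122a, Ddx3x, Asxl1, Trafd1, Isg20 and Foxp1, with smaller ratios between 0.69 and 0.81. Of these, 1 stayed among the first 10 with thinning to 1000 UMIs, so single genes of this list carry little weight. The genes most lowered were Camp, Ltf, Ngp, Serpinb1a, Cybb, Cebpe, Chil3, Tmem256, Adpgk and Ly6g, of which 6 stayed among the first 10 with that thinning. Within the clusters rich in Kit, Ltf had a log2 ratio of -1.04 (-2.70 to 0.26), Camp of 0.13 (-0.66 to 0.83) and Ngp of -0.11 (-0.52 to 0.28) in the liver-labelled library. For the spleen-labelled library Ngp had -0.90 (-1.79 to -0.13), and Ltf and Camp had too few UMIs for a comparison.

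Across sums of clusters and groups, the genes whose pattern was most like that of Kit were Schip1, Clec1a, Amotl2, Tspan2, Ksr1, Csf1, Fam114a1, Kcnj2, Fndc3b and Prrg2. Pearson's r on log2 CPM with 10 CPM added, the smaller of the 2 libraries, lay between 0.64 and 0.76 over 46 sums in the liver-labelled library and 27 in the spleen-labelled library, which share libraries and cluster cells and are no replicates. Csf1, the gene of macrophage colony-stimulating factor, had r of 0.77 and 0.67, and Ksr1, a scaffold of Ras signaling, 0.76 and 0.67. Of the 10 genes, 4 were again among the first 10 with sums of at least 100 cells, 3 with 1 CPM added and 0 over sums of neutrophil-like clusters only.

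Of the other class III receptor kinases, only Csf1r could be compared. The list of these receptors and their ligands had 4 of 13 genes with enough UMIs in neutrophil-like cells of the liver-labelled library, and 3 fell past a log2 ratio of -1 at the high dose, where 13.1% of all genes did. Kit is one of them and was chosen for its fall. Of the same list, 2 genes of the spleen-labelled library could be compared and 1 fell, where 4.45% of all genes did. The second, Csf1, went from 895 to 47 UMIs, or from 74.9 to 11.7 CPM, a log2 ratio of -2.68 (-3.13 to -2.25), and in the spleen-labelled library from 72.2 to 13.5 CPM, a log2 ratio of -2.42 (-3.22 to -1.70). The third, Csf1r, the receptor of macrophage colony-stimulating factor, went from 34.3 to 8.47 CPM in the liver-labelled library (-2.02, -2.57 to -1.51), but had 27.3 and 28.4 CPM in the spleen-labelled library (0.06, -0.59 to 0.70). The fourth, Flt3l, had 43 and 12 UMIs. Flt3, the receptor of early progenitors and dendritic cells, had 5 UMIs or fewer in each pool of neutrophil-like cells, and the receptors Pdgfra and Pdgfrb had none.

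The adaptors and kinases that carry signals from Kit were still present at the high dose. Of 36 listed genes, 31 could be compared in the liver-labelled library, and 2 fell and 0 rose past a log2 ratio of 1, beside 13.1% and 0.672% of all genes. Those 2, Gab1 (53 and 4 UMIs) and Gab2 (167 and 18 UMIs), encode docking proteins downstream of Kit and were named after their values were seen. In the spleen-labelled library 0 of 24 passed in either direction, beside 4.45% and 1.94% of all genes. The median log2 ratio of the list was -0.36 against -0.34 over all genes tested in the liver-labelled library, and 0.04 against -0.06 in the spleen-labelled library. Lyn, a kinase of the Src family, had 356 and 362 CPM with vehicle and at the high dose in the liver-labelled library (log2 ratio 0.03, -0.06 to 0.11), and 288 and 301.5 CPM in the other (0.07, -0.13 to 0.26).

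At the low dose none of the listed genes passed in the liver-labelled library, where 1.24% of all genes fell and 0.184% rose. The signaling list also had 0 of 26 genes past a log2 ratio of 1 in the spleen-labelled library, where 0.951% fell and 1.18% rose. Over the other lists, 1 gene rose there, Socs1, a suppressor of cytokine signaling, from 12 to 47 UMIs (log2 ratio 1.21, 0.28 to 2.26). Of 4 primary granule genes compared there, 2 fell, Mpo and Elane, and of 5 proliferation genes 3 fell, Mki67, Ccnb2 and Ube2c. Their log2 ratios lay between -2.27 and -1.01, where 0.951% of all genes fell. Socs1, Mki67, Ccnb2 and Ube2c were named after their values were seen.

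Few negative regulators and transcription factors of Kit could be compared. Beside the 13.1% and 4.45% of all genes that fell at the high dose, of 10 negative regulators compared in the liver-labelled library, 1 fell, Spry2, with 53 and 8 UMIs, named after its value was seen, and of 6 in the spleen-labelled library 0 passed. Ptpn6, the phosphatase that switches Kit off, had a log2 ratio of -0.34 (-0.45 to -0.22), the same as the median of all genes, and 0.06 (-0.17 to 0.28). Of the transcription factors known to regulate Kit, 9 and 3 could be compared and 0 passed in either library. Spi1, the myeloid factor PU.1, had log2 ratios of -0.05 (-0.11 to 0.02) and 0.08 (-0.06 to 0.23). Gata2 had 5 UMIs or fewer in every pool of neutrophil-like cells.

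Receptor genes of neutrophils are read against the same 13.1% and 4.45%. Of 13 cytokine and chemokine receptors, 2 fell in the liver-labelled library and 1 of 12 in the spleen-labelled library. Cxcr4, the receptor that keeps neutrophils in the marrow, fell in both, with 27.3 CPM for vehicle against 9.22 CPM for the high dose in the liver-labelled library (-1.57, -2.10 to -1.07), and 24.4 and 9.73 CPM in the other (-1.33, -2.35 to -0.41). The other, in the liver-labelled library alone, was Tnfrsf1b, named after its value was seen. Csf3r had log2 ratios of -0.85 (-0.94 to -0.77) and -0.53 (-0.69 to -0.38).

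Beside the same 13.1% and 4.45% of all genes, 1 of 10 late neutrophil genes fell in each library, and it was Il1b in both, with 673 and 147 CPM (-2.20, -2.32 to -2.08), and 1994 and 504 CPM (-1.98, -2.10 to -1.86). At the low dose Il1b was higher than with vehicle, by 0.81 and 0.80 on the log2 scale, where Kit had -0.30 and 0.21 (-0.37 to 0.80). Of 8 secondary granule genes none passed in either library. Ltf had log2 ratios of 0.03 and 0.25, and Camp of -0.57 and -0.54. Of the primary granule genes, Elane had 81 and 5 UMIs in the liver-labelled library (-2.44, -4.11 to -1.16) and 44 and 4 UMIs in the other, and Mpo had 56 and 14 UMIs (-0.43, -1.39 to 0.44) and 37 and 8 UMIs. Ctsg, named after its value was seen, was the one that rose in the liver-labelled library, with 19 and 42 UMIs, where 0.672% of all genes rose. In the lists of stem and progenitor genes 0 of 13 could be compared at the high dose in either library. Of 12 proliferation genes 11 and 4 could be compared, and 1 fell in each, Pcna and Ube2c, both named after their values were seen. The median log2 ratio of that list was 0.54 in the liver-labelled library against -0.34 over all genes, and -0.48 against -0.06 in the other. At a log2 ratio of 0.58 in the liver-labelled library 5 rose and 2 fell, beside 2.47% and 31.9% of all genes.

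One high-dose barcode of the liver-labelled library held many mast cell and basophil transcripts. Of the 12 mast cell and basophil genes, 3 could be compared and 2 rose at the high dose, where 0.672% of all genes did. These were Mcpt8, from 4 to 156 UMIs, and Prss34, from 5 to 182 UMIs. However, a single barcode held 394 UMIs of the list and 0 of Kit. Whether it is another kind of cell or a doublet was not tested. Hdc, which makes histamine and is also present in neutrophils, accounted for 3896 of the list's 3906 UMIs in the vehicle pool. Cells with 3 or more genes of the list numbered 0, 1 and 1 in the 3 pools of the liver-labelled library and 0 in the other, and they held 0 Kit UMIs.

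Beside the endothelial-like cells, which held both genes, the named classes with most Kitl had little Kit. Endothelial-like cells of the spleen-labelled library had 144 Kitl UMIs, or 162 CPM (137 to 191), and by pool 91.9 CPM (39.7 to 181) with vehicle, 198 CPM (151 to 255) at the low dose and 153 CPM (120 to 191) at the high dose. The log2 ratio to vehicle was 1.11 (0.04 to 2.39) at the low and 0.73 (-0.32 to 2.0) at the high dose, from 8 vehicle UMIs. Of the 249 cells, 40 had a UMI of both Kit and Kitl, 47 of Kit alone, 32 of Kitl alone and 130 of neither, and the median depth was 5286 UMIs in the cells with both against 1558 UMIs in those with neither.

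Tumor cells carried the ligand and not the receptor. The 74 4T1 tumor-like cells had 59 Kitl UMIs in 36 cells, or 22.3 CPM (17.0 to 28.7), and 0 Kit UMIs, which allows up to 1.13 CPM. Their Kitl level was 23.1 CPM (4.77 to 67.6), 27.9 CPM (13.95 to 50) and 21.2 CPM (15.5 to 28.3) in the 3 pools, with overlapping intervals. Macrophage-like cells had 24 Kitl UMIs, or 5.37 CPM (3.44 to 7.99), in the spleen-labelled library and 16 UMIs, or 29.8 CPM (17.0 to 48.4), in the liver-labelled library. In the larger macrophage-like cluster of the spleen-labelled library, Kit and Kitl each had 17 UMIs, or 4.73 CPM. The smaller one had 3 UMIs of Kit and 7 of Kitl, and the liver-labelled cells had 2 of Kit. Neutrophil-like cells had 0 Kitl UMIs in the liver-labelled library and 3, all in high-dose cells, in the spleen-labelled library.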

How the data were processed

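A pair of droplet libraries was measured, each of 3 hashtagged pools. The authors deposited, for every barcode, the UMI counts of genes and hashtags without normalization, made with Cell Ranger (5.0.0 per the matrix headers, 6.0.0 per the submitters' processing notes) on mm10. Here, hashtags were called with HTODemux (quantile 0.99) in Seurat 5.3.0 (R 4.3.3), barcodes with 1 hashtag were normalized with SCTransform 0.4.2 on 3000 variable features without Kit and Kitl, and clustered (30 components, resolution 0.8). No other cell filter was used, since mitochondrial counts up to 99.0% remained in the files. Barcodes with more than 1 hashtag were left out as doublets, and Scrublet was an alternative.

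Clusters were named X-like from fixed marker lists (3 or more markers at a log2 fold of 1 in 20% of cells, and no other list leading the top 10 genes). Leading markers counted only where their share of cells was 2 times the median over clusters, a condition chosen after seeing the data. Sums of UMIs were divided by all gene UMIs and given as CPM, with exact Poisson intervals, exact conditional intervals for ratios and Clopper-Pearson intervals for shares, at 95%. Where no UMI was found, 3 counts served as the upper limit. The median barcode had 4673 UMIs in the liver-labelled library and 3368.5 in the spleen-labelled library. Intervals were checked on simulated Poisson sums only. Those sums hold no gathering of UMIs in single cells, so the check cannot show that the intervals are wide enough for Kit.

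Named were Kit and Kitl, the list genes past a log2 ratio of 1 in the same direction in both libraries with 50 UMIs or more, Lyn, Ptpn6, Spi1, Csf3r, Flt3, Csf1r, Mpo, Elane, Ltf, Camp, Cd34, Gata2 and Cpa3, and the 10 genes most like Kit and the 10 highest in cells with Kit. The members and all lists were chosen with earlier results of these data known.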

Additional observations from a re-analysis of the deposited data

Results flagged for a closer look

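Barcodes without a hashtag call carried more Kit and Kitl than vehicle cells in the spleen-labelled library, and they enter no comparison above. The 1627 such barcodes had Kit at 36.6 CPM against 17.1 CPM in all vehicle cells, and Kitl at 24.0 CPM against 2.81 CPM. A0310, the hashtag of the high dose, was the most counted in 1532 of them. Of the 169 Kit UMIs in those 1532 barcodes, 128 lay in 263 barcodes with at least 2 of the endothelial genes Clec4g, Kdr and Ptprb, and these also held 89 Kitl UMIs. Another 48 of the 1532 passed the neutrophil gate on S100a8 and S100a9 and had 0 Kit UMIs of 383652.

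In the liver-labelled library, the 540 barcodes without a call had Kitl at 2.39 CPM, from 6 UMIs in 3 barcodes, against 0.453 CPM in all vehicle cells.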

How the results depend on the processing

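The fall of Kit in high-dose neutrophil-like cells kept its direction under every alternative that gave a ratio, with log2 ratios between -5.21 and -3.35 in the liver-labelled library and bounds between -3.77 and -3.20 in the spleen-labelled library. Its level in the liver-labelled library was 9.76 CPM as a mean over cells, against 99.5 CPM with vehicle, where 1 high-dose cell had 1 Kit UMI of only 759, and 4.92 CPM without the 20 most counted genes, against 85.7 CPM, and vehicle cluster levels, an alternative chosen after seeing the data, gave 10.7 and 12.8 CPM. The vehicle level of the spleen-labelled library, 22.2 CPM, was 11.7 CPM with MULTIseqDemux calls and 11.7 CPM with a marker gate, and the low-dose log2 ratio there became 0.88 with MULTIseqDemux. Thinning to 1000 UMIs gave shares of 6.49%, 5.92% and 0 in the liver-labelled library, and no thinning 13.2% and 11.02%, and 7.67% and 7.17% in the spleen-labelled library. MULTIseqDemux gave 0 for the high-dose share in the liver-labelled library, and the most counted hashtag gave 0.628% for the low dose in the spleen-labelled library. Of the 10 genes most like Kit, 4, 3 and 0 stayed with sums of 100 cells, 1 CPM added and neutrophil-like clusters only. Of the 10 genes higher in cells with Kit, 1 stayed with thinning to 1000 UMIs and 1 within clusters above 20 CPM, and of the 10 lower genes 6 and 0. Places in the lists that fell at the high dose numbered 11 in the liver-labelled library, 7 with 200 UMIs and 25 at a log2 ratio of 0.58. Places that rose numbered 3, 0 and 8. Of all genes there, 13.1%, 7.37% and 31.9% fell and 0.672%, 0.361% and 2.47% rose at these settings. The places that fell include Kit, which was chosen for its fall. In the spleen-labelled library places that fell numbered 4, 1 and 12, and the 0 that rose became 3 at a log2 ratio of 0.58. Of all genes there, 4.45%, 3.54% and 13.6% fell and 1.94%, 1.02% and 6.54% rose. Alternatives were also run on Kit in endothelial-like, dendritic cell-like, granulocyte progenitor-like and T cell-like cells, and on Kitl in endothelial-like and tumor-like cells. Of those values, 110 stayed inside the main interval and 30 moved out of it. The cause of the other changes was not tested. No paired analysis was possible because each group is 1 pool per library, and no replicate could be left out.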

Other observations

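One neutrophil-like cluster of the spleen-labelled library belonged almost wholly to the low-dose pool, with 120 of 125 cells. It was led by Bcl2l15 and Orm1 and by transcripts that hepatocytes are known for, Apoa2, Saa1, Saa2 and Hamp, and its low-dose cells had Kit at 15.3 CPM from 8 UMIs. In the same library the hemoglobin transcript Hbb-bs stood at 4383 CPM in low-dose neutrophil-like cells against 190 CPM with vehicle and 443 CPM at the high dose, and it was higher in neutrophil-like cells with Kit (8811 CPM) than without (2696 CPM), whereas in the liver-labelled library it was lower (98.3 and 345 CPM). Its part in the Kit values was not tested.

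A pair of clusters held basophil or mast cell genes beside Kit and stayed unnamed. Cluster 14 of the liver-labelled library, led by Prss34 and Mcpt8, had 22 Kit UMIs at 27.7 CPM, and cluster 6 of the spleen-labelled library, led by Prss34 and Cma1, had 24 Kit UMIs at 25.0 CPM. At the finer resolution, 22 cells of the first were basophil or mast-like and held 2 of its Kit UMIs, and 142 unnamed cells held 20. Of the second, 49 cells were dendritic cell-like and held 17 of its Kit UMIs, and 15 were basophil or mast-like and held 6.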
